A study of Mus musculus with 30 samples.

Results

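The matrix metalloproteinases (Mmp), the ADAMTS proteases, the ADAMTS-like proteins (Adamtsl) and the tissue inhibitors of metalloproteinases (Timp) are described here in mouse colon across genotype, spermidine, chemical carcinogenesis and tumor formation. Members were taken by gene symbol alone, whatever their level, which gave 50 of the 31023 genes in the table. They are 22 Mmp genes, 19 Adamts genes, 5 Adamtsl genes and 4 Timp genes. Of these, 47 had enough counts to be tested. Mmp1b, Mmp21 and Mmp27 did not, with 6, 3 and 50 counts over all 30 libraries. The Mmp1a gene was not analysed here.

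Matrix metalloproteinases are zinc-dependent enzymes made as inactive precursors that cleave collagens, laminins, fibronectin, elastin and many cell surface proteins. Most are secreted, and the membrane-type members stay on the cell surface and can activate other members. ADAMTS proteases are secreted enzymes with thrombospondin repeats that trim proteoglycans, procollagens and other matrix proteins, the ADAMTS-like proteins resemble them but lack a protease domain, and Timp proteins bind the active site of the proteases and block it. In the gut these genes are known from wound healing, inflammation and tumor invasion, with most of the secreted collagenases and stromelysins made at low levels in resting tissue.

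RNA was sequenced from colon of male C57BL/6 mice, 8 to 12 weeks old, at day 56. The mice were wild type (WT) or Smox-/- (here called Smox), that is, they lacked spermine oxidase, which makes spermidine from spermine. Azoxymethane, a carcinogen of the colon, was injected at 12.5 mg/kg, and dextran sulfate sodium, which damages the colon lining, was then given at 4% in 3 cycles of 5 days from days 5, 26 and 47 (AOM-DSS, written AOM in the labels). Spermidine was supplied at 14 mM in the water for 56 days. The 10 groups held 3 libraries each: Smox tumors after AOM-DSS, WT tumors after AOM-DSS with spermidine, and 8 non-tumor groups, in which Smox and WT colon were each taken after AOM-DSS plus spermidine, AOM-DSS alone, spermidine alone or no treatment. The 2 tumor groups therefore differ in spermidine as well as in genotype, and WT tumors without spermidine and Smox tumors with it were not analysed here. The design text gives 3 mice per group, but the labels do not tie a tumor to a non-tumor sample of the same mouse.

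Libraries held 33060607 to 81011304 counts. Levels are given as CPM, the count scaled to library size with TMM factors, and a level compared between genes is given per kb of exon. A gene is said to have risen or fallen where its adjusted p was under 0.05 in edgeR's quasi-likelihood test with Benjamini-Hochberg adjustment over 19558 genes, and fold changes carry the standard error (SE) of that fit on the log2 scale. A pair of libraries stood apart from their groups and were left out together in 1 alternative fit. In untreated WT replicate 3, markers of skeletal muscle summed to 8845 CPM and those of distal colon position to 11.8 CPM, against 28.5 and 35.4 CPM and 673 and 737 CPM in the other untreated WT libraries, and 21.7% of its counts were mitochondrial, against 2.57 to 9.90% elsewhere. In replicate 1 of Smox colon after AOM-DSS with spermidine, a library labelled non-tumor, markers of Wnt-driven tumors summed to 966 CPM, against 108 and 70.6 CPM in the other libraries of that group. Other libraries also departed from their groups and were kept in that fit. Wnt-driven tumor markers reached 330 CPM in replicate 1 of WT colon after AOM-DSS, against a group low of 54.2 CPM. Squamous epithelium markers ranged from 52.6 to 2780 CPM in untreated Smox colon, and skeletal muscle markers from 18.2 to 1511 CPM in Smox colon on spermidine. Smox RNA itself was counted in all Smox libraries. It had 27.4 to 36.2 CPM in untreated Smox colon, against 25.1 to 27.6 CPM in untreated WT colon, while its mean was lower in Smox than in WT colon on spermidine (22.7 against 47.3 CPM), after AOM-DSS (29.9 against 46.9 CPM) and after both (40.5 against 49.4 CPM, with overlap). Which exons the allele lacks is not given in the labels, so a count over the whole gene does not check the genotype, and groups are named here by label.

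**Figure D1:**
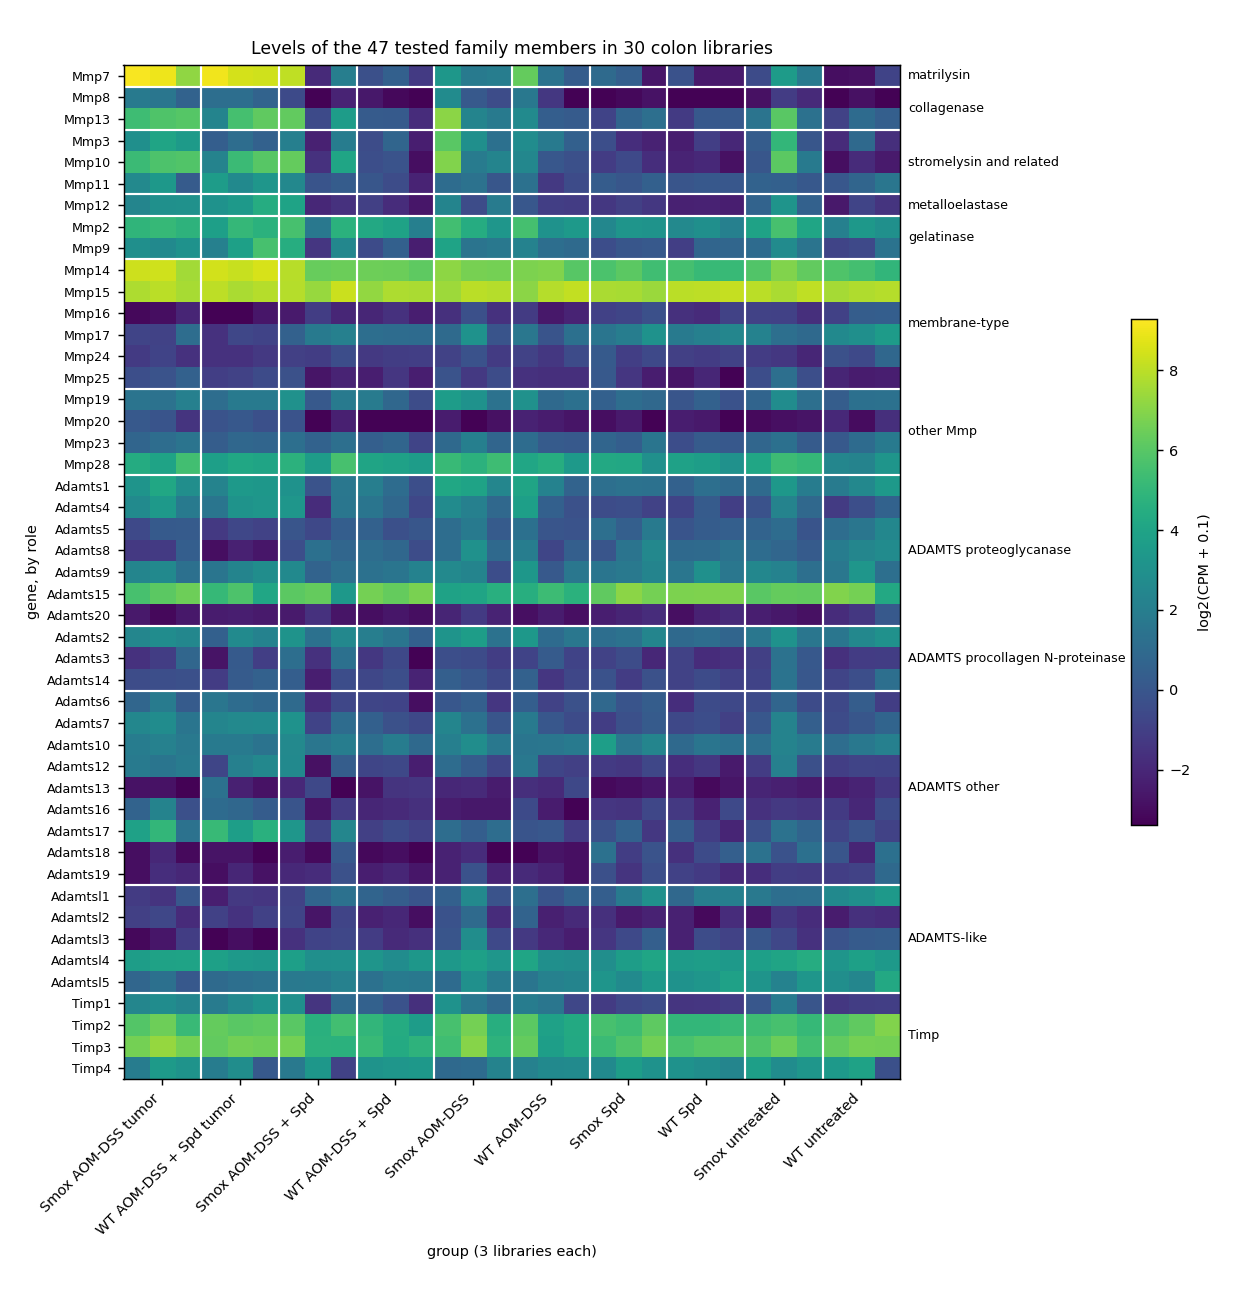
Heat map of the 47 tested members (rows, grouped by role) in the 30 libraries (columns, 3 per group), with colour showing log2(CPM + 0.1). Mmp7 and Mmp14 are brightest in the 6 tumor libraries and the Smox non-tumor library with tumor markers, Mmp15 is bright in every library, and single non-tumor libraries stand out for Mmp10 and Mmp13.

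In colon without tumor a membrane-type enzyme led the family. Mmp15 (chr8:95352268-95375080 on GRCm38), which encodes a membrane-bound collagenolytic enzyme, had the highest level per length in 7 of the 8 non-tumor groups, at 35.3 to 49.1 CPM per kb as group means. In untreated WT colon it had 40.1 ± 4.15 CPM per kb, followed by Timp2 at 21.2 ± 8.77, Timp3 at 11.2 ± 1.53, Adamts15 at 7.73 ± 5.21 and Mmp14 at 7.35 ± 2.05 CPM per kb (SD, n = 3). The steps between Timp3, Adamts15 and Mmp14 lie within their spread. Mmp15 passed the test in none of the 18 comparisons and had 135 to 309 CPM over the 24 non-tumor libraries and 196 to 258 CPM over the 6 tumors.

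Tumors had a different leading gene. Mmp7, matrilysin, a small secreted enzyme that in the mouse small intestine is made by Paneth cells and activates their alpha-defensins, reached 385 ± 218 CPM per kb in Smox tumors and 379 ± 94.4 CPM per kb in WT tumors on spermidine. The next gene was Mmp14, the membrane-type enzyme that activates the Mmp2 precursor, at 47.2 ± 13.4 and 57.5 ± 5.89 CPM per kb in the same order of groups, followed by Mmp15 at 40.9 ± 5.03 and 43.2 ± 4.87 CPM per kb (SD, n = 3 each).

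Many secreted members sit side by side in the genome. In all, 9 Mmp genes, Mmp13, Mmp12, Mmp1b, Mmp3, Mmp10, Mmp8, Mmp27, Mmp20 and Mmp7 in that order, lie within 427.1 kb (chr9:7272514-7699585 on GRCm38). Only Mmp1b is on the minus strand. The cluster holds matrilysin (Mmp7), the collagenases (Mmp13, Mmp8 and Mmp1b), the stromelysins (Mmp3 and Mmp10), the macrophage metalloelastase (Mmp12), the enamel enzyme enamelysin (Mmp20) and Mmp27. RefSeq promoter windows of GRCm38.p6, which run from 250 bases before a start to 50 after it, were found for 35 of the 50 members. Both strands of each were searched for the AP-1 motif TGAGTCA, which reads TGACTCA on the other strand; AP-1 is the Fos and Jun transcription factor and is known to act on several of these genes. The motif occurred in 6 of the 38 windows of these members, against 1709 of 32851 mouse promoter windows (5.2%), and all 6 are in the cluster, each at another gene: Mmp13 at -35, Mmp12 at -44, Mmp3 at -46, Mmp10 and Mmp7 at -63 and Mmp1b at -93, counted from the start to the first base of the motif. Mmp12 and Mmp7 each have 2 RefSeq starts, and the motif is at 1 of them. The stretch from 120 bases before the start to 30 after it is shown for the 3 cluster genes with the highest tumor levels, with the motif in capitals, and for Mmp20, a cluster gene that rose in both tumor comparisons and has no such letters in its window. All 4 genes are on the plus strand.

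Mmp7 promoter (chr9:7691970-7692119): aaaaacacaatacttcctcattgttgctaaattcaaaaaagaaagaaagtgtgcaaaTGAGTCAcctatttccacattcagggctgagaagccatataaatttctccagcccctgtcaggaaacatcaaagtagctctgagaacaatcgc
Mmp10 promoter (chr9:7502222-7502371): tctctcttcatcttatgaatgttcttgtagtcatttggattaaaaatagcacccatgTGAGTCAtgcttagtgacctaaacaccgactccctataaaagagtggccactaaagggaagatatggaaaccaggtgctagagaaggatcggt
Mmp13 promoter (chr9:7272394-7272543): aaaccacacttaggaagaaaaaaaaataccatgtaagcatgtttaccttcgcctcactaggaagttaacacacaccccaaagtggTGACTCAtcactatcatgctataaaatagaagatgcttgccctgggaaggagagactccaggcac
Mmp20 promoter (chr9:7628111-7628260): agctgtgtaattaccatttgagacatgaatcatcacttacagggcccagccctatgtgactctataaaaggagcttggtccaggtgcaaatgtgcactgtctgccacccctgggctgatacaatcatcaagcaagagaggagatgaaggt

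A match describes these letters only, and binding was not measured. The plot of the cluster along the chromosome sets these genes' tumor levels beside their non-tumor levels.

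**Figure D2:**
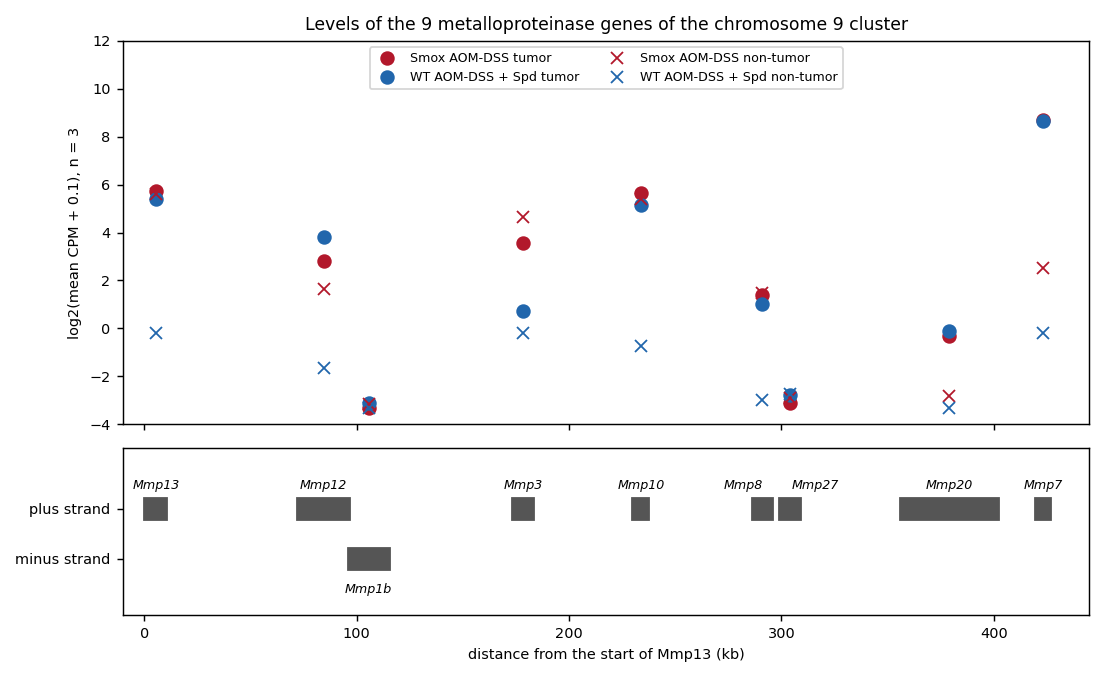
Upper panel, log2(mean CPM + 0.1) of the 9 cluster genes (n = 3 per group) against position in kb from the start of Mmp13; lower panel, the genes by strand. In WT mice on spermidine the tumor means (blue dots) of Mmp13, Mmp12, Mmp10, Mmp8, Mmp20 and Mmp7 lie above the non-tumor means (blue crosses), while in Smox mice the tumor and non-tumor means (red) of Mmp13, Mmp10 and Mmp8 nearly coincide.

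Tumors were compared with non-tumor colon of the same genotype and treatment, in pairs of groups that share no library. In Smox mice after AOM-DSS, 11 of the 47 tested members passed the test, 6 higher and 5 lower in tumors, where 24.6% of all genes passed (11.4% higher and 13.2% lower). In WT mice after AOM-DSS with spermidine, 23 members passed, 17 higher and 6 lower, where 34.4% of all genes passed (16.9% higher and 17.5% lower). The members' median log2 change was 0.04 in Smox mice and 0.96 in WT mice, beside -0.01 and 0.01 over all genes tested. Members called in both comparisons numbered 10, which is 90.9% of the 11 Smox calls and 43.5% of the 23 WT calls. The same overlap over all genes is not given here, so these shares cannot be read as particular to the family. Mmp7, Mmp14, Mmp20, Adamts16 and Adamts17 were higher in tumors of both genotypes, Mmp16, Adamts8, Adamtsl1 and Adamtsl3 lower in both, and Adamts15 went in opposite directions. The Smox count rested on single libraries: it was 1 without non-tumor replicate 2 or without tumor replicate 2, 2 without tumor replicate 1, and 9 to 12 without each of the others. Over all genes the Smox calls moved too. From 4820 they fell to 2482 without non-tumor replicate 2, 1234 without tumor replicate 2 and 1063 without tumor replicate 1. They were 2604 to 6114 without each of the others. The WT count was 14 without non-tumor replicate 3, 15 without non-tumor replicate 2 and 17 to 20 otherwise. Over all genes the WT calls were 4740 and 4734 without these libraries and 4461 to 6234 otherwise, against 6722 with all libraries. With only the 2 groups compared in the fit, the Smox count was 5, beside 2841 of all genes.

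Matrilysin changed the most. Mmp7 had 588, 499 and 147 CPM in the Smox tumors, against 9.77, 3.53 and 3.79 CPM in Smox non-tumor colon. In WT mice on spermidine it had 521, 359 and 336 CPM in tumors, against 0.719, 1.31 and 0.318 CPM in non-tumor colon. The tumors lay far above the 3 non-tumor libraries of their own comparison in both genotypes, and Smox tumor replicate 3 was the lowest of the 6 tumors. The log2 fold change was 6.17 (SE 1.85, adjusted p 0.0214) in Smox mice and 8.95 (SE 2.12, adjusted p 0.00318) in WT mice. The Smox tumor calls of Mmp7, Mmp14 and Mmp20 were each kept in 2 of 6 fits that left out a library. The WT tumor calls of these genes were each kept in 6 of 6. Paneth cell markers, 6 genes, summed to 2390, 2018 and 334 CPM in the Smox tumors, against 7.85 to 19.9 CPM in Smox non-tumor colon, and to 738 to 2481 CPM in WT tumors, against 4.92 to 12.2 CPM in WT non-tumor colon. None of the 6 was without counts in the tumors, 5 of 6 rose in Smox tumors and all 6 in WT tumors, and their part in the Mmp7 result was not tested. In bulk tissue, more cells of a type and more RNA per cell cannot be told apart.

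Mmp13, Mmp10, Mmp8 and Mmp12 of the cluster and Mmp9 rose in tumors of WT mice on spermidine and did not pass in Smox mice, and for none of the 5 did the difference between these responses pass the test. Mmp13, the main collagenase of interstitial collagen in the mouse, had 5.00, 46.9 and 72.9 CPM in WT tumors, against 1.09, 1.05 and 0.191 CPM in WT non-tumor colon, a log2 fold change of 5.69 (SE 1.69, adjusted p 0.0134). Mmp10, stromelysin-2, had 4.69, 37.6 and 63.5 CPM in WT tumors, against 0.686, 0.813 and 0.0317 CPM in WT non-tumor colon (log2 6.02, SE 1.78, adjusted p 0.0129). Both genes were lowest in WT tumor replicate 1, yet each of these tumors lay above the 3 WT non-tumor libraries after AOM-DSS with spermidine. In Smox mice Mmp13 had 41.4, 55.4 and 61.5 CPM in tumors, against 137, 4.98 and 3.45 CPM in non-tumor colon, and Mmp10 had 38.5, 53.8 and 56.8 CPM in tumors, against 118, 3.65 and 4.96 CPM in non-tumor colon. There the groups overlap, because non-tumor replicate 1 exceeded all 3 tumors while the other non-tumor libraries lay below them. The fitted changes in Smox mice were 0.12 (SE 1.36, adjusted p 0.961) for Mmp13 and 0.23 (SE 1.40, adjusted p 0.922) for Mmp10. The test of the difference, Smox minus WT, gave -5.57 (SE 2.09, adjusted p 0.317) for Mmp13 and -5.79 (SE 2.18, adjusted p 0.317) for Mmp10.

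Mmp8, the neutrophil collagenase, had 2.20, 2.19 and 1.47 CPM in WT tumors, against 0.0653, 0.0156 and 0 CPM in WT non-tumor colon (log2 5.91, SE 1.69, adjusted p 0.0113). In Smox mice it had 3.31, 2.86 and 1.39 CPM in tumors and 6.52, 1.02 and 0.625 CPM in non-tumor colon, and the groups overlap. Neutrophil markers, 9 genes, summed to 156 to 194 CPM in Smox tumors, against 117 to 294 CPM in Smox non-tumor colon, and to 124 to 169 CPM in WT tumors, against 111 to 134 CPM in WT non-tumor colon. Of the 7 tested, 4 rose in WT tumors and 0 in Smox tumors, and Elane had no count in either WT group, and their part in the Mmp8 result was not tested. Mmp12, macrophage metalloelastase, had 8.38, 10.9 and 22.0 CPM in WT tumors, against 0.408, 0.188 and 0.0635 CPM in WT non-tumor colon (log2 5.90, SE 1.35, adjusted p 0.00254), with no overlap. In Smox mice Mmp12 had 5.02, 7.68 and 8.15 CPM in tumors, against 4.89, 0.622 and 3.56 CPM in non-tumor colon. Those groups do not overlap either, although the test was not passed. Mmp9, gelatinase B, which cleaves denatured collagen, had 4.34, 14.2 and 48.7 CPM in WT tumors, against 0.604, 1.33 and 0.0952 CPM in WT non-tumor colon (log2 5.01, SE 1.23, adjusted p 0.00403), with no overlap but a wide spread among the WT tumors. In Smox mice Mmp9 had 7.54, 6.07 and 8.30 CPM in tumors, against 15.5, 2.75 and 3.10 CPM in non-tumor colon, and the groups overlap. Macrophage markers, 10 genes, summed to 152 to 298 CPM in Smox tumors, against 175 to 253 CPM in Smox non-tumor colon, and to 154 to 187 CPM in WT tumors, against 89.9 to 139 CPM in WT non-tumor colon. Of these markers 0 rose in Smox tumors and 3 in WT tumors, none was without counts, and their part was not tested.

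Mmp20, known for its part in tooth enamel, was low but followed the tumors. It had 1.01, 0.847 and 0.251 CPM in Smox tumors, against 0.0850, 0 and 0.0431 CPM in Smox non-tumor colon, a log2 fold change of 3.98 (SE 1.24, adjusted p 0.0268). WT tumors had 0.806, 0.965 and 0.706 CPM, and WT non-tumor colon had no count in any of the 3 libraries. Against a floor of 3 counts over that group the WT tumor level was at least 43.1-fold higher (adjusted p 0.00193). Replicate 1 of the Smox AOM-DSS with spermidine group, the non-tumor library with tumor markers, had 0.790 CPM of Mmp20, within the range of the tumors, and 272 CPM of Mmp7.

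**Figure D3:**
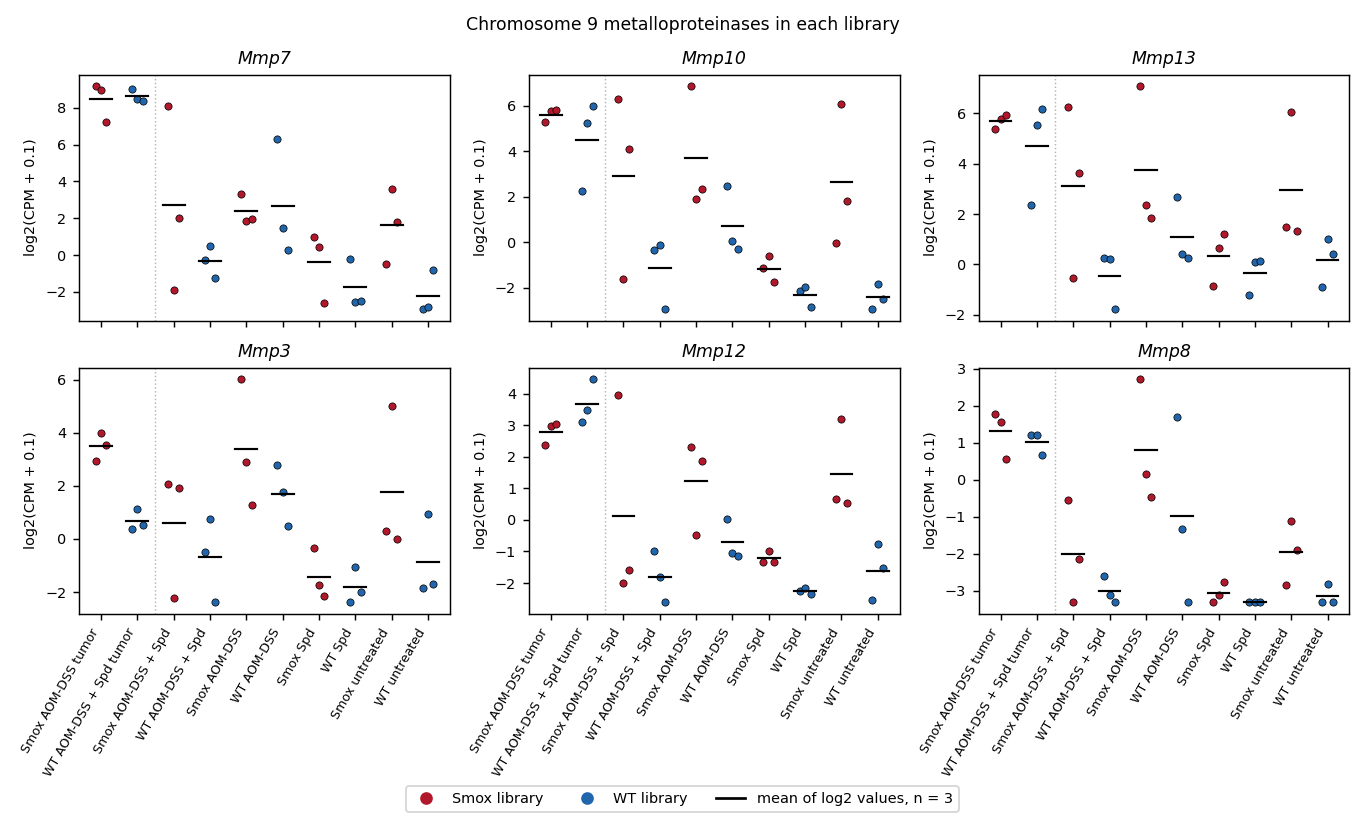
Log2(CPM + 0.1) of 6 metalloproteinases of the chromosome 9 cluster in each library, by group, with red points for Smox and blue for WT libraries and bars for the mean of the log2 values (n = 3). Mmp7 is above every non-tumor group mean in the 6 tumors, whereas Mmp10 and Mmp13 are as high in single non-tumor Smox libraries as in tumors.

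Among membrane-type enzymes Mmp14 rose and Mmp16 and Mmp17 fell. Mmp14 (chr14:54431612-54445364), the activator of the Mmp2 precursor, had 324, 331 and 189 CPM in Smox tumors, against 141, 105 and 99.8 CPM in Smox non-tumor colon. In WT mice it had 351, 305 and 374 CPM in tumors, against 90.2, 85.8 and 69.7 CPM in non-tumor colon. In each genotype the tumors lay above all 3 non-tumor libraries they were compared with, with log2 fold changes of 1.29 in Smox and 2.07 in WT mice. Its substrate Mmp2, gelatinase A, did not pass the test in any comparison and had 30.3, 34.8 and 28.0 CPM in Smox tumors and 13.7, 33.0 and 26.4 CPM in WT tumors. Mmp16, another activator of the Mmp2 precursor, was near the floor, with 0.0147, 0.0308 and 0.134 CPM in Smox tumors against 0.221, 0.726 and 0.237 CPM in Smox non-tumor colon (log2 -2.71, SE 0.88, adjusted p 0.0301), and the log2 fold change in WT mice was -2.83. Mmp17, a membrane-type enzyme with a glycolipid anchor, had 0.230, 0.507 and 0.461 CPM in WT tumors, against 2.19, 2.03 and 1.97 CPM in WT non-tumor colon, and fell by 2.36 on the log2 scale. Mmp11, stromelysin-3, which is known from fibroblasts around tumors, had 5.90, 10.1 and 1.10 CPM in Smox tumors, against 2.0, 2.56 and 0.905 CPM in Smox non-tumor colon, and 12.2, 6.07 and 9.65 CPM in WT tumors, against 0.915, 0.641 and 0.127 CPM in WT non-tumor colon. It rose by 4.02 on the log2 scale in WT mice, and its groups overlap in Smox mice.

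Fibroblast markers, 10 genes, summed to 133 to 144 CPM in Smox tumors, against 96.4 to 334 CPM in Smox non-tumor colon, and to 87.9 to 163 CPM in WT tumors, against 46.2 to 129 CPM in WT non-tumor colon, and 1 of the 10 rose and 2 fell in WT tumors while 2 fell in Smox tumors. Endothelial markers, 7 genes, summed to 68.9 to 85.7 CPM in Smox tumors, against 32.5 to 128 CPM in Smox non-tumor colon, and to 49.6 to 84.8 CPM in WT tumors, against 25 to 51.1 CPM in WT non-tumor colon. None of these markers was without counts, and their part in the results was not tested.

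Of the ADAMTS proteases, Adamts17 and Adamts16 rose in tumors of both genotypes and Adamts8 fell in both. Adamts17 (chr7:66839735-67153171), a protease known from connective tissue disorders of the eye and skeleton, had 14.3, 32.5 and 2.5 CPM in Smox tumors, against 2.09, 1.21 and 2.09 CPM in Smox non-tumor colon (log2 3.19, SE 0.90, adjusted p 0.0166). WT tumors had 35.2, 12.9 and 25.3 CPM, against 0.408, 0.594 and 0.413 CPM in WT non-tumor colon (log2 5.68, SE 1.02, adjusted p 0.000548). Neither pair of groups overlaps, although Smox tumor replicate 3 exceeded the non-tumor libraries only slightly. Adamts16 had 1.47, 4.73 and 0.701 CPM in Smox tumors, against 0.0850, 0.0691 and 0.0647 CPM in Smox non-tumor colon (log2 4.93, SE 1.07, adjusted p 0.00596), and 1.97, 1.69 and 1.12 CPM in WT tumors, against 0.147, 0.172 and 0.222 CPM in WT non-tumor colon. It was the only Smox tumor call that was kept when any one library of the comparison was left out.

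Wnt-driven tumor markers, 8 genes, accompanied these rises. All 8 rose in both comparisons, with sums of 1473, 2287 and 258 CPM in the Smox tumors, against 62.4 to 85.2 CPM in Smox non-tumor colon, and 1314 to 3103 CPM in WT tumors, against 102 to 156 CPM in WT non-tumor colon. Smox tumor replicate 3 was the lowest tumor for these markers, for the Paneth markers, for Mmp7, for Mmp14, for Mmp20 and for Adamts17, and it had 1030 CPM of smooth muscle markers, against 45.6 to 142 CPM in the other 5 tumors. The part of these marker genes in the results was not tested.

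Adamts8, a proteoglycan-cleaving protease first known as an inhibitor of vessel growth, had 0.308, 0.323 and 1.2 CPM in Smox tumors, against 2.17, 8.00 and 1.83 CPM in Smox non-tumor colon (log2 -2.71, SE 0.79, adjusted p 0.0188), and its log2 fold change was -4.39 in WT mice. Adamtsl3, a matrix protein without protease activity, had 0.0147, 0.0616 and 0.367 CPM in Smox tumors, against 0.867, 7.0 and 0.560 CPM in Smox non-tumor colon (log2 -4.25, SE 1.05, adjusted p 0.00931). The groups do not overlap for either gene, and non-tumor replicate 2 was the highest of the Smox libraries. In WT tumors Adamtsl3 had 2 counts in all 3 libraries together, against 40 counts in WT non-tumor colon, a level 23.9-fold lower with a counting interval (95%) of 6.20 to 204-fold. Adamtsl1, likewise a matrix protein without a protease domain, fell by 2.39 on the log2 scale (SE 0.75, adjusted p 0.0271) in Smox tumors and by 2.36 in WT tumors. Adamtsl5, which binds fibrillin microfibrils, had 1.63, 2.36 and 0.952 CPM in Smox tumors, against 1.94, 7.64 and 3.54 CPM in Smox non-tumor colon (log2 -1.41, adjusted p 0.0333). Its groups overlap, and the call was kept in 1 of 6 fits that left out a library, the one without non-tumor replicate 1.

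Smooth muscle markers, 8 genes, were lower along with these genes. They summed to 101, 136 and 1030 CPM in Smox tumors, against 895 to 4228 CPM in Smox non-tumor colon, and to 45.6 to 142 CPM in WT tumors, against 1087 to 1374 CPM in WT non-tumor colon. Of the 8, 2 fell in Smox tumors and all 8 in WT tumors, and none was without counts. Enteric neuron and glia markers, 8 genes, summed to 14.9 to 32.8 CPM in Smox tumors, against 46.7 to 142 CPM in Smox non-tumor colon, and to 22.0 to 37.4 CPM in WT tumors, against 10.9 to 26.5 CPM in WT non-tumor colon, and 7 fell in Smox tumors while 5 fell and 1 rose in WT tumors. The part of either list in the falls of Adamts8 and the Adamtsl genes was not tested. Of the other marker lists, colonocyte markers fell in 5 of 8 genes in Smox tumors and 7 of 8 in WT tumors, adipocyte markers in 2 and 1 of 5, and skeletal muscle markers in 0 and 1 of 8. Squamous epithelium markers rose in 5 and 2 of 8, and of 6 general epithelium markers 1 rose in Smox tumors and 1 rose and 3 fell in WT tumors.

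Adamts15 (chr9:30899155-30922452), an abundant protease of versican and other proteoglycans, was the only member called in opposite directions. It had 48.5, 68.8 and 90.9 CPM in Smox tumors, against 15.2, 15.9 and 24.0 CPM in Smox non-tumor colon, and rose by 1.92 on the log2 scale. In WT mice on spermidine it had 34.3, 54.1 and 17.2 CPM in tumors, against 99.5, 78.1 and 109 CPM in non-tumor colon, and its log2 fold change was -1.44. Neither pair of groups overlaps. The difference between these responses was 3.36 (SE 0.79) with an adjusted p of 0.152 in edgeR's test, which does not pass. The WT call was kept in 1 of 6 fits that left out a library. WT non-tumor colon after AOM-DSS without spermidine, outside both comparisons, had 23.9, 38.9 and 26.1 CPM of Adamts15. These values overlap those of the WT tumors. The comparisons differ in spermidine as well as in genotype, and the part of each cannot be told apart here. Markers of distal colon position, 6 genes, summed to 487 to 581 CPM in Smox tumors, against 223 to 326 CPM in Smox non-tumor colon, and to 558 to 628 CPM in WT tumors, against 743 to 957 CPM in WT non-tumor colon, and 4 of them rose in Smox tumors and 0 changed in WT tumors. The part of colon position in the Adamts15 result was not tested.

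**Figure D4:**
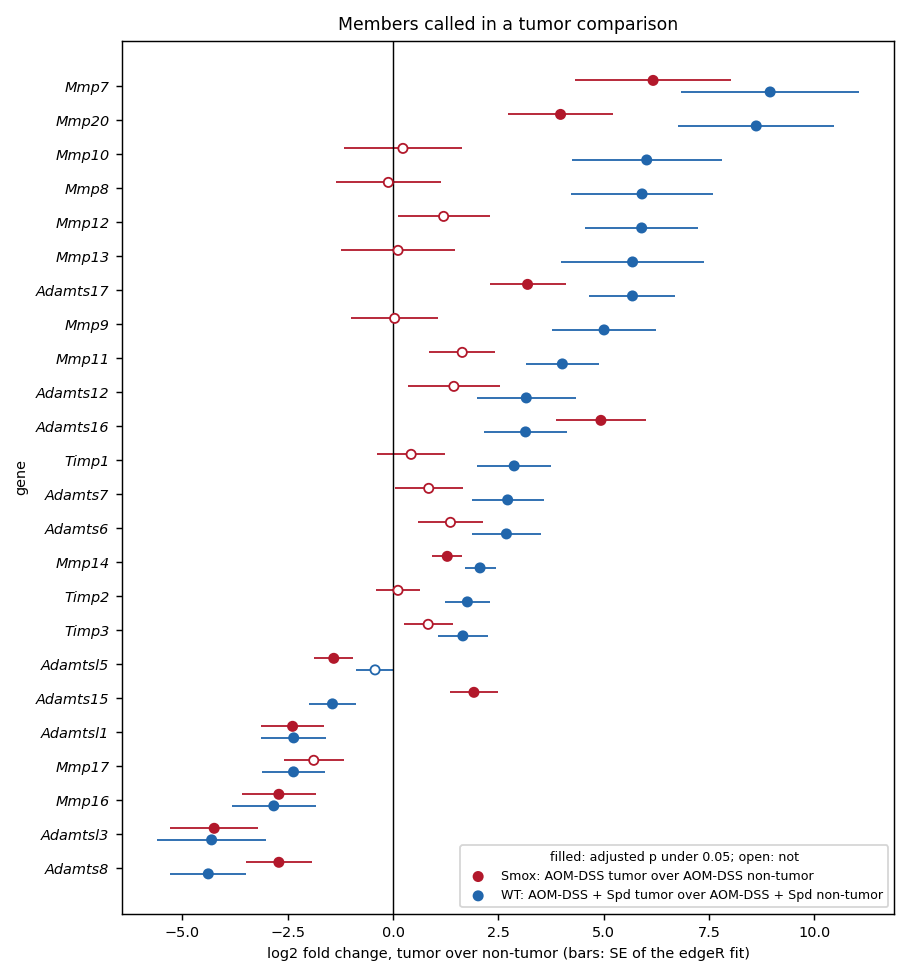
Log2 fold change of tumor over non-tumor colon for the 24 members called in either comparison, with bars of 1 SE, for Smox mice after AOM-DSS (red) and WT mice after AOM-DSS with spermidine (blue); filled points passed the test. Mmp7 is far to the right in both, Adamts8 and Adamtsl3 to the left in both, and Adamts15 lies on opposite sides of 0. The WT point of Mmp20 is a fitted value against a group without counts and does not measure a fold.

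The remaining ADAMTS calls were rises in WT tumors. Adamts12, known to cleave cartilage oligomeric matrix protein, had 0.493, 4.35 and 5.74 CPM in WT tumors, against 0.506, 0.547 and 0.0952 CPM in WT non-tumor colon, and its groups overlap through tumor replicate 1 (log2 change 3.16). Adamts7, which cleaves the same protein, had 5.03, 5.91 and 6.22 CPM in WT tumors, against 1.29, 0.751 and 0.540 CPM in WT non-tumor colon (log2 change 2.72). Adamts6 had 2.91, 2.01 and 1.72 CPM in WT tumors, against 0.506, 0.454 and 0.0317 CPM in WT non-tumor colon (log2 change 2.69), and neither of these genes overlaps between the groups. Of the 3 procollagen N-proteinases, Adamts2, Adamts3 and Adamts14, which trim fibrillar collagens, 0 passed in any of the 18 comparisons.

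The inhibitors Timp1, Timp2 and Timp3 rose in WT tumors over WT non-tumor colon of the same treatment. Timp1, an inducible soluble inhibitor, had 3.65, 5.68 and 8.38 CPM in WT tumors, against 1.37, 0.782 and 0.222 CPM in WT non-tumor colon, a log2 change of 2.87. Timp2, which also takes part in the activation of the Mmp2 precursor by Mmp14, had 79.9, 66.5 and 71.6 CPM in WT tumors, against 30.8, 21.2 and 12.1 CPM in WT non-tumor colon, a log2 change of 1.76. Timp3, the inhibitor that stays bound to the matrix, had 76.4, 97.3 and 91.5 CPM in WT tumors, against 35.4, 20.6 and 28.0 CPM in WT non-tumor colon, a log2 change of 1.66. For the 3 genes the tumors lay above all 3 of these WT non-tumor libraries. Untreated WT colon, which was not part of the comparison, had 53.9, 73.2 and 120 CPM of Timp2 and 77.0, 101 and 95.2 CPM of Timp3, as high as tumors. Its Timp1 was lower, at 0.293, 0.375 and 0.385 CPM. The WT tumor calls of Timp1, Timp2 and Timp3 were kept in 3, 5 and 1 of 6 fits that left out a library. In Smox mice the same inhibitors overlapped between tumors and non-tumor colon, with log2 changes of 0.43, 0.12 and 0.83 and adjusted p from 0.295 to 0.891. Timp4 did not pass in any comparison.

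**Figure D5:**
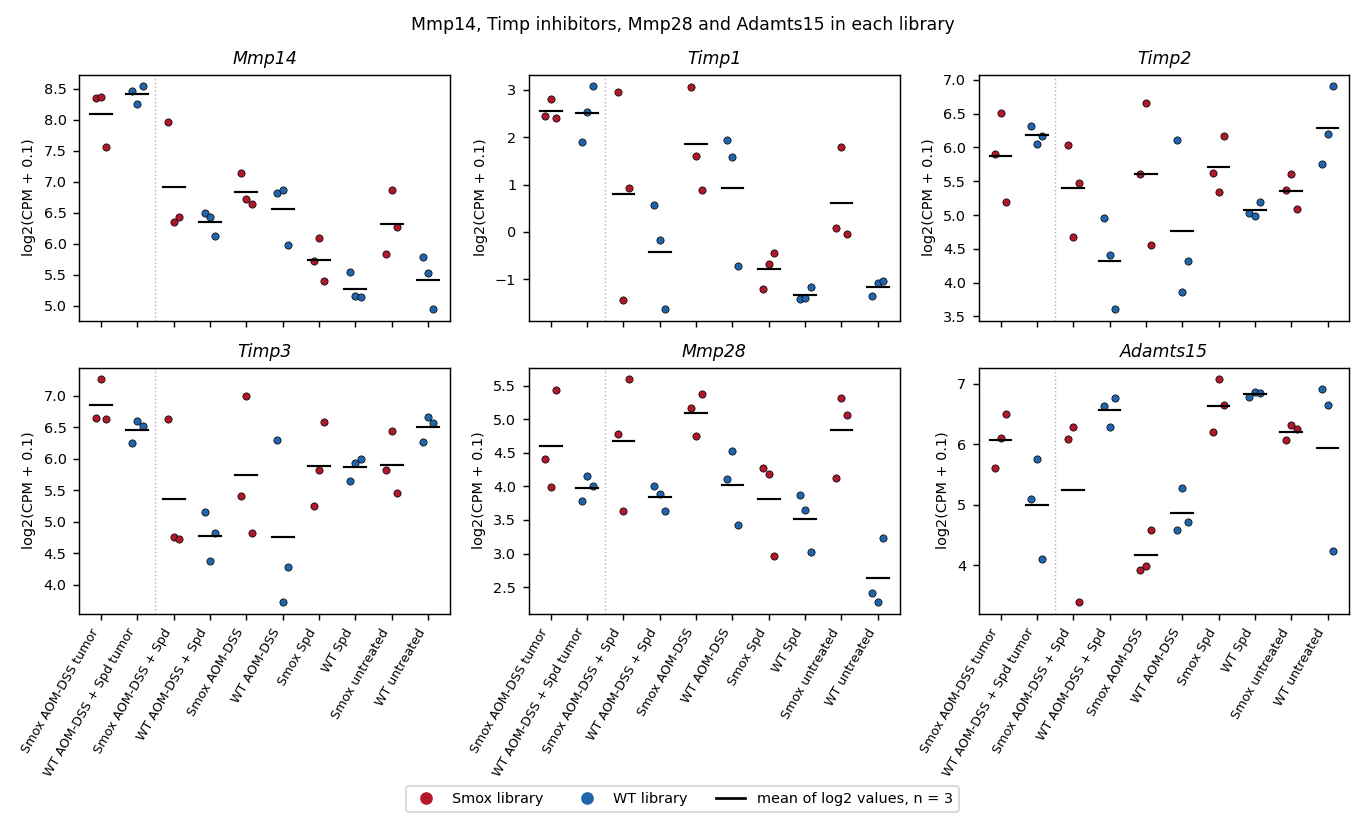
Log2(CPM + 0.1) of Mmp14, Timp1, Timp2, Timp3, Mmp28 and Adamts15 in each library, by group, with red points for Smox and blue for WT libraries and bars for the mean of the log2 values (n = 3). By group mean, Mmp14 is highest in the tumor groups and Mmp28 is lowest in untreated WT colon, with overlap between single libraries. The Smox non-tumor library with tumor markers has more Mmp14 (248 CPM) than the lowest tumor (189 CPM). Single low libraries stand out for Adamts15.

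Levels per length were also summed over the secreted metalloproteinases and over the inhibitors, as a description without a test. The secreted metalloproteinases summed to 464 ± 209 CPM per kb in Smox tumors, against 84.8 ± 99.6 CPM per kb in Smox non-tumor colon, and to 441 ± 59.2 CPM per kb in WT tumors, against 10.2 ± 4.44 CPM per kb in WT non-tumor colon (SD, n = 3 each). The 4 inhibitors summed to 38.4 ± 12.1 CPM per kb in Smox tumors, against 28.2 ± 16.5 CPM per kb in Smox non-tumor colon, and to 36.8 ± 2.3 CPM per kb in WT tumors, against 11.4 ± 3.47 CPM per kb in WT non-tumor colon. The ratio of the sums was 12.1 ± 5.21 in Smox tumors, against 3.35 ± 3.52 in Smox non-tumor colon, and 12.1 ± 2.29 in WT tumors, against 0.880 ± 0.291 in WT non-tumor colon. The lowest Smox tumor ratio, 7.83, was close to the highest Smox non-tumor ratio, 7.33. Mmp7 alone made up 385 of the 464 CPM per kb in Smox tumors and 379 of the 441 CPM per kb in WT tumors, and RNA levels do not give the amounts of active enzyme.

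Compared directly between Smox tumors and WT tumors on spermidine, edgeR's test called 0 of 47 members, where 0.0614% of all genes passed (0.0358% higher and 0.0256% lower). At an unadjusted p under 0.05 there were 5 members, beside 1098 of all 19558 genes, and DESeq2 called 2 members, beside 148 of all genes. Adamts8 had 0.308, 0.323 and 1.2 CPM in Smox tumors, against 0.0329, 0.115 and 0.0614 CPM in WT tumors, which do not overlap, but its log2 difference of 3.09 had an adjusted p of 0.467. Mmp3, stromelysin-1, had 7.55, 16 and 11.6 CPM in Smox tumors, against 1.2, 2.08 and 1.34 CPM in WT tumors, also without overlap (log2 2.93, adjusted p 0.865). The 47 members' median difference was 0.34, beside 0.01 over all genes.

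Without treatment, Smox and WT colon differed in 5 members, 3 higher and 2 lower in Smox colon, where 5.95% of all genes passed (2.63% higher and 3.32% lower), and the members' median log2 difference was 0.14, beside -0.01 over all genes. Mmp28, epilysin, an enzyme of resting and healing epithelia, had 17.3, 39.8 and 33.2 CPM in Smox colon, against 5.2, 4.73 and 9.27 CPM in WT colon (log2 2.23, SE 0.47, adjusted p 0.0204). Mmp10 had 0.892, 67.3 and 3.46 CPM in Smox colon, against 0.0293, 0.180 and 0.0770 CPM in WT colon (log2 7.91, SE 2.02, adjusted p 0.0288). Mmp25, a membrane-type enzyme known from leukocytes, had 0.654, 2.3 and 0.682 CPM in Smox colon, against 0.132, 0.0832 and 0.0962 CPM in WT colon (log2 3.52, SE 0.93, adjusted p 0.0327). The groups do not overlap for any of the 3, and Smox replicate 2 was the highest library of each.

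The members lower in Smox colon were both rare transcripts. Mmp24, a membrane-type enzyme of the nervous system, had 0.357, 0.289 and 0.142 CPM in Smox colon, against 0.732, 0.569 and 1.67 CPM in WT colon (log2 -1.92, SE 0.47, adjusted p 0.0254). Adamts20, known from pigment cell development, had 0.0991, 0.0681 and 0.0386 CPM in Smox colon, against 0.190, 0.291 and 1.0 CPM in WT colon (log2 -2.83, SE 0.71, adjusted p 0.0268). Neither overlaps, and WT replicate 3, the library rich in muscle RNA, was highest for both. Without that library none of the 5 members passed, nor without Smox replicate 2 or 3, and the count was 3 without WT replicate 1, 4 without WT replicate 2 and 5 without Smox replicate 1. Over all genes the calls fell from 1164 to 17 without WT replicate 3 and to 6 without Smox replicate 2 or 3. They were 943 to 1367 in the other fits. With both atypical libraries removed the log2 differences were 2.60 for Mmp28, 7.79 for Mmp10, 3.47 for Mmp25, -1.31 for Mmp24 and -1.81 for Adamts20, and none passed. In that fit 28 of all genes passed.

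Several marker lists differed between the same groups. Neutrophil markers summed to 93.8 to 143 CPM in Smox colon, against 1.27 to 127 CPM in WT colon, with 3 of 7 tested higher, Elane without counts in both groups and Mpo without counts in WT. Macrophage markers summed to 148 to 263 CPM in Smox colon, against 52.5 to 93.7 CPM in WT colon, with 3 of 10 higher. Enteric neuron and glia markers summed to 22.5 to 41.4 CPM in Smox colon, against 85.1 to 318 CPM in WT colon, with 6 of 8 lower. Smooth muscle markers summed to 1103 to 3430 CPM in Smox colon, against 5044 to 7841 CPM in WT colon, without overlap, and 0 of 8 passed (median log2 -1.71). Squamous epithelium markers, 8 genes, summed to 52.6 to 2780 CPM in Smox colon, against 15.2 to 75.1 CPM in WT colon, with 3 higher. The part of these markers in the 5 results was not tested.

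Higher in Smox colon in all 4 non-tumor genotype comparisons were 19 of the 47 tested members, Mmp10, Mmp25 and Mmp28 among them. Lower in all 4 was 1 member, Adamts15, and the same counts over all genes are not given here. For Mmp28 the direction of the untreated difference thus recurred in treated mice, without passing the test. After AOM-DSS it had 35.7, 26.8 and 41.5 CPM in Smox colon, against 17.2, 23.0 and 10.7 CPM in WT colon, with no overlap (log2 1.03, adjusted p 0.554). After AOM-DSS with spermidine it had 27.4, 12.3 and 48.4 CPM in Smox colon, against 15.9, 14.7 and 12.3 CPM in WT colon, and after spermidine alone 19.2, 18.2 and 7.67 CPM in Smox colon, against 14.5, 12.5 and 8.07 CPM in WT colon, and both pairs overlap (log2 1.04 and 0.36).

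AOM-DSS in WT mice without spermidine changed 5 members, 2 higher and 3 lower than in untreated WT colon, where 6.44% of all genes passed (1.76% higher and 4.68% lower), and the members' median log2 change was -0.07, beside 0.00 over all genes. Mmp7 had 79.2, 2.65 and 1.11 CPM after AOM-DSS, against 0.0293, 0.0416 and 0.462 CPM without it (log2 7.41, SE 2.11, adjusted p 0.0415). All treated libraries were higher, replicate 1 by far the most, and that library also had 209 CPM of Paneth markers and 330 CPM of Wnt-driven tumor markers, against 7.01 and 7.43 CPM and 54.2 and 60.5 CPM in the other treated libraries. Mmp8 had 3.11, 0.296 and 0 CPM after AOM-DSS, against 0, 0.0416 and 0 CPM without it, and the groups overlap. That is 195 counts against 3, a 74.5-fold ratio with a counting interval (95%) of 25.1 to 364, which covers counting error only, and the fit gave a log2 change of 6.05 (SE 1.75, adjusted p 0.0453). Neutrophil markers summed to 120 to 235 CPM after AOM-DSS, against 1.27 to 127 CPM without it, with 3 of 7 higher, and their part was not tested.

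The 3 falls were in rare ADAMTS transcripts. Adamts18 had 0, 0.0523 and 0.0376 CPM after AOM-DSS, against 0.864, 0.139 and 2.31 CPM without it (log2 -5.11, SE 1.45, adjusted p 0.0408). Adamts19 had 0.175, 0.122 and 0.0376 CPM, against 0.381, 0.444 and 1.81 CPM without it (log2 -2.94, SE 0.87, adjusted p 0.0468), and Adamts20 had 0.0349, 0.0872 and 0.0376 CPM, against 0.190, 0.291 and 1.0 CPM without it (log2 -3.15, SE 0.73, adjusted p 0.0206). None of the 3 overlaps, and untreated WT replicate 3 was the highest library of each. Without that library, or without AOM-DSS replicate 2, none of the 5 members passed, and the count was 3 without untreated replicate 1 or AOM-DSS replicate 3, 4 without AOM-DSS replicate 1 and 5 without untreated replicate 2. Over all genes the calls fell from 1260 to 9 without untreated replicate 3 and to 0 without AOM-DSS replicate 2. They were 521 to 1831 in the other fits. Without both atypical libraries the log2 changes of Adamts18, Adamts19 and Adamts20 were -3.97, -1.86 and -2.13 and that of Mmp7 was 9.52. None of the 5 members passed in that fit, where 43 of all genes did. The Mmp7 call was kept in 1 of 6 fits that left out a library. Skeletal muscle markers, 8 genes, summed to 3.45 to 14.9 CPM after AOM-DSS, against 28.5, 35.4 and 8845 CPM without it, with 5 lower. Enteric neuron and glia markers summed to 34.6 to 42.9 CPM after AOM-DSS, against 85.1 to 318 CPM without it, with 4 of 8 lower. Smooth muscle markers summed to 356 to 2538 CPM after AOM-DSS, against 5044 to 7841 CPM without it, with 1 of 8 lower. The part of these lists was not tested.

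In WT mice on spermidine, AOM-DSS changed 1 member, where 1.91% of all genes passed (1.48% lower). Adamtsl5 had 2.45, 3.36 and 3.11 CPM after AOM-DSS, against 8.44, 9.40 and 14.3 CPM with spermidine alone (log2 -1.85, SE 0.47, adjusted p 0.0425). The groups do not overlap, but the call was kept in only 1 of 6 fits that left out a library, the one without spermidine-only replicate 1. Colonocyte markers summed to 3503 to 5089 CPM after AOM-DSS, against 13794 to 32405 CPM with spermidine alone, with 1 of 8 lower. Squamous epithelium markers summed to 4.60 to 21.6 CPM after AOM-DSS, against 78.9 to 306 CPM with spermidine alone, and adipocyte markers to 64.0 to 124 CPM, against 173 to 294 CPM, with 1 lower in each list. The part of these markers was not tested. The members' median log2 change was -0.11, beside 0.01 over all genes. Mmp14 had 90.2, 85.8 and 69.7 CPM after AOM-DSS, against 46.3, 35.7 and 35.1 CPM with spermidine alone, which do not overlap (log2 1.07, adjusted p 0.115). In WT mice without spermidine Mmp14 had 112, 117 and 63.0 CPM after AOM-DSS, against 54.8, 46.0 and 30.6 CPM without it, also with no overlap (log2 1.15, adjusted p 0.0532).

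In Smox mice 0 members passed edgeR's test for AOM-DSS, with or without spermidine, where 0.0767% of all genes passed without spermidine (0.0716% lower) and 0.0205% with it. At an unadjusted p under 0.05 there were 8 members without spermidine and 17 on it, beside 2533 and 3193 of all 19558 genes. DESeq2 called 2 and 8 members, beside 529 and 749 of all genes. Adamts15 had 15.2, 15.9 and 24.0 CPM after AOM-DSS, against 66.8, 79.3 and 76.2 CPM in untreated Smox colon, which do not overlap (log2 -2.01, adjusted p 0.131). Distal position markers summed to 223 to 326 CPM in the first of these groups, against 251 to 515 CPM in the second, and their part was not tested. On spermidine, Mmp14 had 248, 81.5 and 85.7 CPM after AOM-DSS, against 52.5, 68.1 and 41.9 CPM with spermidine alone (log2 1.35, adjusted p 0.133), and replicate 1, the library with tumor markers, was the highest. Without replicate 2 of the treated group, 1 member was called on spermidine, beside 91 of all genes.

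For spermidine, 0 members passed edgeR's test in each of 4 comparisons. The shares of all genes called were 0.00511% in untreated WT mice, 0% in untreated Smox mice, 0% in WT mice during AOM-DSS and 0% in Smox mice during AOM-DSS. In the same order the members' median log2 changes were -0.66, -0.47, -0.64 and -0.24, beside -0.04, 0.01, -0.03 and 0.00 over all genes. Members at an unadjusted p under 0.05 numbered 8, 9, 6 and 8 in these comparisons, beside 3152, 1825, 1109 and 2676 of all 19558 genes. DESeq2 called 1, 2, 0 and 0 members, beside 904, 45, 47 and 421 of all genes. In Smox mice Mmp10 had 0.350, 0.555 and 0.201 CPM on spermidine, against 0.892, 67.3 and 3.46 CPM without it, and Mmp3 had 0.684, 0.200 and 0.124 CPM on spermidine, against 1.13, 32.3 and 0.888 CPM without it. Neither pair overlaps, yet untreated replicate 2 stood far above the rest, and the log2 changes of -6.01 and -5.09 had an adjusted p of 0.498. Adamts5, an aggrecan-cleaving protease, had 0.838, 1.11 and 1.27 CPM in WT mice on spermidine, against 2.09, 2.93 and 5.43 CPM in untreated WT mice (log2 -1.70, adjusted p 0.136).

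Between genotypes in treated non-tumor colon, 0 members passed edgeR's test. The shares of all genes called were 0.0818% on spermidine (0.0307% higher and 0.0511% lower), 0.0665% after AOM-DSS (0.0358% higher and 0.0307% lower) and 0.251% after both (0.169% higher). At an unadjusted p under 0.05 there were 5, 6 and 15 members, beside 1882, 1640 and 2773 of all 19558 genes. In DESeq2 1, 1 and 7 members passed, beside 231, 128 and 746 of all genes. On spermidine Adamts10, a protease of fibrillin microfibrils, had 13.1, 3.04 and 5.10 CPM in Smox colon, against 1.82, 2.78 and 2.33 CPM in WT colon, with no overlap (log2 1.61, adjusted p 0.223). After AOM-DSS with spermidine the members' median log2 difference was 1.05, beside 0.05 over all genes. The median was 0.50 on spermidine alone, beside 0.07, and 0.75 after AOM-DSS alone, beside 0.03. The part of single libraries in these medians was not tested. In the Smox group given both, the library with tumor markers stood apart for several members. That library had 272 CPM of Mmp7, 77.9 CPM of Mmp10, 75.5 CPM of Mmp13 and 15.5 CPM of Mmp12, against 0.172 and 3.95 CPM, 0.230 and 16.9 CPM, 0.593 and 12.3 CPM, and 0.153 and 0.234 CPM in the other libraries of its group. Without replicate 2 of that Smox group, the count of members called was 6, beside 469 of all genes.

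Single untreated or AOM-DSS libraries of Smox mice carried collagenase and stromelysin genes at or above their Smox tumor levels. Untreated Smox replicate 2 had 67.3 CPM of Mmp10, 66.5 CPM of Mmp13 and 32.3 CPM of Mmp3, and replicate 1 after AOM-DSS had 118, 137 and 65.2 CPM of the same genes. Their Wnt-driven tumor markers summed to 91.2 and 79.9 CPM, within the 62.4 to 97.3 CPM of these 2 groups, and their Mmp7 was 11.7 and 9.77 CPM. The other libraries of those groups had 0.888 to 7.40 CPM of the 3 genes.

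The interaction of genotype and spermidine called 1 member, Mmp24, where 2.91% of all genes passed. Mmp24 had 1.03, 0.385 and 0.557 CPM in Smox mice on spermidine and 0.357, 0.289 and 0.142 CPM in untreated Smox mice, while WT mice had 0.401, 0.351 and 0.443 CPM on spermidine and 0.732, 0.569 and 1.67 CPM untreated. The spermidine change in Smox mice exceeded that in WT mice by 2.64 on the log2 scale (SE 0.66, adjusted p 0.0367). The change was 1.33 within Smox mice (adjusted p 0.498) and -1.31 within WT mice (adjusted p 0.175), and neither passed. The call was kept in 4 of 12 fits that left out a library, the ones without untreated WT replicate 1 or 2, untreated Smox replicate 1 or spermidine Smox replicate 2. The number of members called was 2 without untreated WT replicate 1 or spermidine Smox replicate 2, beside 690 and 763 of all genes. Without both atypical libraries the Mmp24 value was 2.04, which did not pass. The interaction of genotype and AOM-DSS called 0 members, where 0% of all genes passed. At an unadjusted p under 0.05 there were 11 members, beside 3088 of all 19558 genes, and DESeq2 called 4, beside 1242. Without untreated WT replicate 1 or 2 or untreated Smox replicate 1, 1 member was called, beside 340, 451 and 148 of all genes. Without AOM-DSS Smox replicate 3 the count was 2, beside 591 of all genes. The difference of the tumor responses called 0 members, where 0.0102% of all genes passed. There 13 members were at an unadjusted p under 0.05, beside 2282 of all genes, and DESeq2 called 2, beside 240.

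Related genes were counted in the same comparisons. Of 19 tested regulators (inhibitors, activating convertases, plasminogen activators and binding proteins), 5 rose and 3 fell in Smox tumors and 9 rose and 1 fell in WT tumors, with median log2 changes of 0.42 and 0.84, beside -0.01 and 0.01 over all genes. That is 8 of 19 in Smox tumors, where 24.6% of all genes passed, and 10 of 19 in WT tumors, where 34.4% passed. In WT tumors these included Lcn2, which binds Mmp9 (log2 7.61), the matrix protein Thbs2 (6.86) and the plasminogen activator Plat (4.04). In Smox tumors Thbs2 rose by 3.46, Plat by 2.92 and the convertase Pcsk6 by 2.83, and the convertase Pcsk5 fell by 4.74. In untreated Smox colon, where 5.95% of all genes passed, 3 of 19 were higher than in WT: the urokinase receptor Plaur (log2 2.68), the proteoglycan Sdc1 (0.77) and the convertase Furin (0.66), with a list median of 0.24. After AOM-DSS in WT mice without spermidine 1 regulator fell, Pcsk5 (log2 -2.94), 1 fell in WT mice on spermidine, and 1 was higher in Smox than in WT colon after AOM-DSS with spermidine.

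Of 10 ADAM proteases, the membrane-bound relatives that shed cell surface proteins, 3 rose and 1 fell in Smox tumors and 4 rose and 2 fell in WT tumors (medians 0.04 and 0.32), beside the same shares of 24.6% and 34.4% of all genes. Adam12 rose by 3.70 and 6.87 and Adam8, known from leukocytes, by 2.86 and 5.04 on the log2 scale in Smox and WT tumors, and Adam33 fell by 6.13 in WT tumors. In untreated Smox colon Adam8 was higher than in WT (log2 3.65), as was Adam28, at 2.08 CPM in Smox colon against 0.00641 CPM in WT colon. Adam9 rose after AOM-DSS in WT mice (log2 0.66). Of 21 tested matrix substrates, 1 rose and 1 fell in Smox tumors and 5 rose and 0 fell in WT tumors (medians -0.12 and 0.76), that is 2 and 5 of 21 beside 24.6% and 34.4% of all genes. The rises in WT tumors included fibronectin Fn1 (log2 2.48), the basement membrane collagens Col4a1 (2.14) and Col4a2 (1.94) and Comp (1.76). In Smox tumors the proteoglycan Bcan fell by 3.81, and it also fell after AOM-DSS in WT mice (log2 -3.62).

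Over all 18 comparisons, 30 of the 47 tested members passed at least once, 14 Mmp, 10 Adamts, 3 Adamtsl and 3 Timp genes. The share of all genes that passed at least once is not given here, so this count does not set the family apart. The tumor comparisons alone called 24.6% of all genes in Smox mice and 34.4% in WT mice. The other 17 passed in none: Adamts1, Adamts2, Adamts3, Adamts4, Adamts5, Adamts9, Adamts10, Adamts13, Adamts14, Adamtsl2, Adamtsl4, Mmp2, Mmp3, Mmp15, Mmp19, Mmp23 and Timp4. They include abundant genes such as Mmp15 and Adamtsl4, at 6.80 to 21.7 CPM in the 24 non-tumor libraries and 9.73 to 15.7 CPM in the 6 tumors for Adamtsl4, and genes with a wide spread such as Mmp3, at 1.2 to 16 CPM in the tumors and 0.0911 to 65.2 CPM in the non-tumor libraries. Exons of 13 members overlap a gene on the opposite strand, Mmp7, Mmp12, Mmp24, Mmp28, Adamts8 and Timp3 among them, and the strand setting of the counting is not given in the sources used here, so reads of such pairs may not have been told apart.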

How the data were processed

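Colon RNA was extracted with RNeasy columns and made into NEBNext Ultra II Directional libraries, per the labels' protocols. Reads were processed with fastp, Salmon and DESeq2 on GRCm38, per the submitters' processing notes; versions, strand settings and annotation are not given in the sources used here. The table the authors deposited holds estimated counts per gene, as whole numbers that differ in total between libraries, with no normalization. Libraries held 33060607 to 81011304 counts.

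Groups came from the sample titles, with 3 libraries in each of 10 groups. Replicates were numbered in accession order, so numbers pair nothing. P-values measure the spread between these libraries, which may be partly technical. Members were found by symbol, and positions and exon lengths were taken from a GRCm38 annotation. Members and lists were chosen with earlier results of these data known, 3 lists of related genes and 14 of cell type markers.

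Counts were tested in R 4.3.3 with edgeR 4.0.16, using TMM scaling, filterByExpr (minimum count 10, minimum total 15), and 1 robust quasi-likelihood fit of the 30 libraries. This left 19558 genes and removed 11465. There were 15 pair comparisons and 3 interactions, each adjusted by Benjamini-Hochberg, with a threshold of 0.05. All members could be named; at most the 8 called members of largest log2 fold change per comparison have full statistics, and at most 4 genes of each related list are named per comparison. Some genes of the related lists are not reported here by name. The tests were also run on simulated counts without outlying libraries, with a result not given here. Such counts cannot show whether calls that rest on single libraries hold. Alternatives were DESeq2 1.42.0, RLE scaling, testing without the count filter or with at least 1 CPM in 3 libraries, fitting only the groups compared, removal of 2 atypical libraries, and leaving out each library. Intervals and floors cover counting error only.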

Additional observations from a re-analysis of the deposited data

Results flagged for a closer look

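A difference between the genotypes' responses to spermidine was found for Mmp24. The interaction of genotype and spermidine was 2.64 on the log2 scale in edgeR's quasi-likelihood test (SE 0.66, adjusted p 0.0367), from low levels of 0.142 to 1.67 CPM in the 12 libraries. The 3 spermidine libraries of Smox mice lay above the untreated ones and the 3 of WT mice below them. The call was kept in 4 of 12 fits that left out a library. No group of 3 libraries could be screened for single outlying values.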

How the results depend on the processing

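Of 46 member results that passed, 46 stayed called with RLE scaling and 46 with DESeq2, 37 without a count filter, 39 of 39 with 1 CPM in 3 libraries, 28 with only the groups compared and 35 without both atypical libraries; no direction reversed. Counts of members called in edgeR that moved are as follows. Untreated Smox against WT (5) gave 3 with 1 CPM in 3 libraries, 0 with only the groups compared, 0 without both atypical libraries and 10 with DESeq2. AOM-DSS in WT (5) gave 1 without a filter, 0 with only the groups compared, 0 without both atypical libraries and 15 with DESeq2. AOM-DSS in WT on spermidine (1) gave 5 with only the groups compared, 3 without both atypical libraries and 2 with DESeq2. AOM-DSS in Smox (0) gave 1, 1 and 2 under the same settings, and the difference of the tumor responses (0) also 1, 1 and 2. Smox tumors (11) gave 5 with only the groups compared. Genotype by spermidine (1) gave 0 without a filter, with 1 CPM in 3 libraries, with only the groups compared and without both atypical libraries, and 5 with DESeq2. For counts of 0 in edgeR, DESeq2 gave 1 for spermidine in WT, 2 for spermidine in Smox, 1 for genotype on spermidine, 1 for genotype after AOM-DSS, 8 for AOM-DSS in Smox on spermidine, 7 for genotype after AOM-DSS with spermidine, 2 for Smox against WT tumors and 4 for genotype by AOM-DSS. Leaving out 1 library gave 0 to 5 for untreated genotype and for AOM-DSS in WT, 0 to 1 for AOM-DSS on spermidine in WT and in Smox, 0 to 6 for genotype after AOM-DSS with spermidine, 1 to 12 for Smox tumors, 14 to 20 for WT tumors, 0 to 2 for genotype by spermidine and for genotype by AOM-DSS, and 0 for the rest. Calls over all genes moved as well. For untreated Smox against WT, 1164 genes became 1 with only the groups compared, 28 without both atypical libraries and 2689 with DESeq2. For AOM-DSS in WT, 1260 genes became 0, 43 and 2770 under the same settings. The cause of these moves was not tested, beyond the fewer libraries or genes in each fit. No paired analysis was possible because the replicate numbers follow accession order and the labels give groups no shared numbers. With 3 libraries a group, members near 0 CPM rest on few counts.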
